A study of Solanum lycopersicum and Solanum pimpinellifolium with 30 samples.

Results

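Landrace 3836 is 1 of 9 Andean landraces of the cultivated tomato, Solanum lycopersicum, whose ripe red fruit was profiled on one-colour Affymetrix tomato GeneChips. Its members are the 3 arrays titled 3836, of 30 arrays in the series, and they were set against the equally weighted mean of the other 8 landraces, 549, 557, 560, 571, 572, 3806, 3815 and 3842, with 3 arrays each. The remaining 3 arrays are of LA1589, an accession of the wild relative S. pimpinellifolium, and took no part in the comparison. All plants grew in a single field season, in 3 parcels of 6 plants for every accession (18 plants each), and the labels name no treatment and no introduced allele for any of them. The fruit was picked red, and its skin, locules and seeds were discarded, so that the RNA came from the inner pericarp, the flesh of the fruit. The labels call the 3 arrays of a landrace biological replicates without saying which plants or parcels fed each array. The p-values therefore measure the spread between these arrays, and with 3 arrays a landrace the precision is limited.

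Ripening in tomato is driven by ethylene, which is made from S-adenosylmethionine by ACC synthase and ACC oxidase. It is sensed by membrane receptors that repress the response until ethylene binds, and is carried into transcription by ethylene response factors. Among its targets in the pericarp are enzymes that take apart the cell wall (pectin esterases, polygalacturonase, cellulases, mannanases and beta-galactosidases), enzymes of aroma formation and those of the red carotenoid lycopene.

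Values below are log2 signals after quantile normalisation, and differences are log2 differences between 3836 and the mean of the other 8 landraces, with the SE of the fit. A probe set counts as at background on an array if it does not exceed the percentile 95 of 63 probe sets for foreign reporter sequences. By that measure 60% ± 3 of probe sets (SD, n = 3 arrays) were above background in 3836. This was the third lowest landrace mean after 557 (48.5%) and 572 (58.2%), with the highest in 3806 (72%). The background level itself averaged 0.866 in 3836, the third highest after 557 (1.67) and 572 (0.952), with the lowest in 3806 (0.48). Weak signals therefore met a higher cut in 3836 than in most other landraces. The bacterial transcripts spiked into each hybridisation read 9.70 ± 0.32 in 3836, the third highest landrace mean after 557 (10.4) and 572 (10.3), with the lowest in 571 (8.29). The 3 arrays of 3836 correlated with each other at a mean r of 0.969 to 0.976, and the best correlation of each with an array of another landrace was 0.966 to 0.977, in 3806 or 3842. The label of ripe pericarp was borne out by its markers. All 7 measured markers of red ripe pericarp were above background in 3836, among them the polygalacturonase gene PG2 (9.47 ± 0.91), the phytoene synthase gene Psy1 (8.91 ± 0.75) and the ripening regulator RIN (7.74 ± 0.21). The 5 measured markers of epidermis and cuticle and the single seed marker, TAS14, were at background in 3836. The leaf and green tissue markers (6 measured, CAB5 at background) had summed levels of 8.18 to 9.06 on the 3836 arrays, inside the 7.22 to 10.68 of the other 24.

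Of 10038 probe sets, 381 differed between 3836 and the other landraces (3.8%; limma, adjusted p under 0.05), 206 higher (2.05%) and 175 lower (1.74%). By at least 2-fold, 138 differed (1.37%), with 65 higher (0.648%) and 73 lower (0.727%). Among the 803 genes with a name, each on 1 probe set, 35 passed (4.36%), 18 higher (2.24%) and 17 lower (2.12%). The strongest named increases were in the ethylene response factor gene ERF2, the pectin methylesterase gene PME2.1 and ER21, an ethylene-responsive fruit gene. The strongest named decreases were in the mannanase gene Man4, the ACC synthase gene ACS4 and the cellulase gene Cel2. The mean of 3836 lay above all 8 other landrace means for 14 of the 18 higher named genes and below all 8 for 12 of the 17 lower ones. Among all called probe sets the same held for 162 of the 206 higher and 120 of the 175 lower ones. Over all probe sets, called or not, the mean of 3836 was above all 8 others for 9.71% and below them for 9.07%. Called genes were picked by the difference from these same 8 landraces, so an extreme mean among them is largely built in. Single arrays separated less often: all 3 arrays of 3836 were above all 24 others for 21 probe sets (0.209%) and below all of them for 11 (0.11%), and 18 and 6 of these passed the test. RNA was taken from whole tissue, so fewer cells of a type and less RNA per cell cannot be told apart in any of these values.

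The number of genes that passed moved with the error term, the spiked controls, single arrays and single landraces. The test used the spread between arrays of a landrace as its error. With the spread between the other 8 landraces as the error instead, 0 of 10038 passed (limma, lowest adjusted p = 0.947, 283 at an unadjusted p under 0.05). With the spiked control mean as a covariate 15 passed, of which 13 were among the 381. With 1 array of 3836 left out, 64 passed without replicate 1, 56 without replicate 2 and 177 without replicate 3. Without 560 in the comparison mean 126 passed, and without 3806 in it 590. Under median centring in place of quantile normalisation the median over all probe sets moved from -0.006 to 0.115, and 377 were higher and 112 lower. Of the 39 called features described below, the 35 named genes and 4 unnamed probe sets, 2 passed with the covariate, AAT and LesAffx.63979.1.S1_at. Without replicate 1, 2 or 3 of 3836, 6, 7 and 11 of the 39 passed, and without 560 in the comparison mean 11 did.

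**Figure D1:**
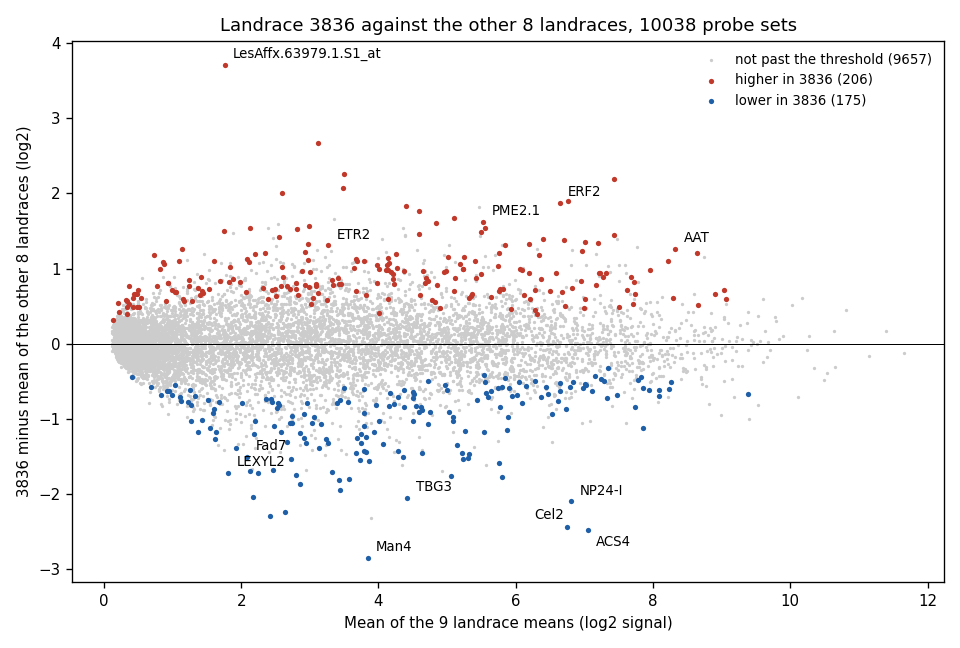
Each point is 1 of 10038 probe sets, with the mean of the 9 landrace means on the x axis (log2 signal) and the difference of 3836 from the other 8 landraces on the y axis (log2). The 206 higher and 175 lower probe sets past the threshold are coloured, and the named points run from LesAffx.63979.1.S1_at at 3.71 to Man4 at -2.85.

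Of 50 measured genes of ethylene and ripening regulation, 2 were higher in 3836, 1 was lower and 47 did not pass. This is 6% called, near the 4.36% of all named genes, and the list median was -0.04 beside -0.006 for all probe sets. ERF2 (chromosome 9, 64442760 to 64443895, assembly SLM_r2.1), a transcription factor of the ethylene response, read 8.15, 8.34 and 8.44 on the 3 arrays of 3836. On the 24 other arrays it had a lowest value of 3.40, a median of 6.50 and a highest of 8.47. All 3 arrays of 3836 were in the upper end of that range, and single arrays of 549 and 3806 reached it too. The difference was 1.88 ± 0.41 (adjusted p = 0.017), or 3.68-fold, and every other landrace mean was lower, from 4.15 ± 0.64 in 560 to 7.88 ± 0.61 in 3806. ERF2 lost the threshold when any 1 array of 3836 was left out, and without 560 in the comparison mean (adjusted p = 0.0585). ETR2 (chromosome 7, 66877937 to 66884353), an ethylene receptor, read 4.77, 4.42 and 4.12 in 3836 against 1.46, 3.35 and 4.27 for the lowest, median and highest other array. Replicate 3 of 3836 fell inside the others' range and the remaining pair lay above it. The difference was 1.31 ± 0.25 (adjusted p = 0.00741), and ETR2 lost the threshold without replicate 1 or 2 of 3836. The other 5 measured receptor genes did not pass: ETR1 stood at 0.35 ± 0.31 (adjusted p = 0.628), ETR3 at -0.15 ± 0.23 (adjusted p = 0.809), ETR4 at -0.08 ± 0.35 (adjusted p = 0.939) and ETR6 at 0.21 ± 0.32 (adjusted p = 0.804). ETR5, at background in 2 of the other landraces, had an adjusted p of 0.33.

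ACS4 (chromosome 5, 63086666 to 63089491), an ACC synthase of ripening fruit, was lower. Its values in 3836 were 5.32, 6.09 and 3.11, and those of the other arrays had a lowest of 4.23, a median of 7.65 and a highest of 8.56. All 3 arrays of 3836 were under the others' median, and the ranges overlapped through 1 low array each of 3806, 3815 and 549. The difference was -2.49 ± 0.61 (adjusted p = 0.0262), 5.60-fold lower, with the mean of 3836 (4.84 ± 1.55) under that of every other landrace. It rested partly on replicate 3 of 3836: without it the difference was -1.62 (adjusted p = 0.229), and without replicate 2 it was -3.11 (adjusted p = 0.0483). ACS2, the other ACC synthase gene of ripening, stood at -1.69 ± 0.63 and did not pass (adjusted p = 0.142). SAM3 (chromosome 9, 2239509 to 2242804), an S-adenosylmethionine synthetase, read 4.42, 4.57 and 3.67 in 3836 against 3.54, 5.59 and 6.46 for the lowest, median and highest other array. Its difference was -1.17 ± 0.32 (adjusted p = 0.045), and arrays of 549, 3806 and 3815 were as low. It lost the threshold without any 1 of 557, 560, 571 and 572 in the comparison mean, with adjusted p-values from 0.061 to 0.0837. SAM3 kept the threshold in 10 of the 27 fits that left out 1 array, and in 0 of the 3 without an array of 3836. E8 (-0.71 ± 0.45), an ethylene-induced ripening gene, and RIN (0.24 ± 0.19) did not pass.

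ER21, isolated as an ethylene-responsive gene of tomato fruit, was higher by 1.45 ± 0.28 (adjusted p = 0.00819). It read 8.52, 8.60 and 9.05 in 3836 against 5.11, 7.42 and 9.42 for the lowest, median and highest other array, so the ranges overlapped at the top, in 549, 3806 and 3815. A second probe set of ER21 gave 1.56 (adjusted p = 0.00625). ER68, another gene of that isolate series and named here after its value was seen, was higher by 0.78 ± 0.21 (adjusted p = 0.0396). The plot of genes higher in 3836 shows that the lowest means of ERF2, ETR2 and ER21 were all in 557 and 560.

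**Figure D2:**
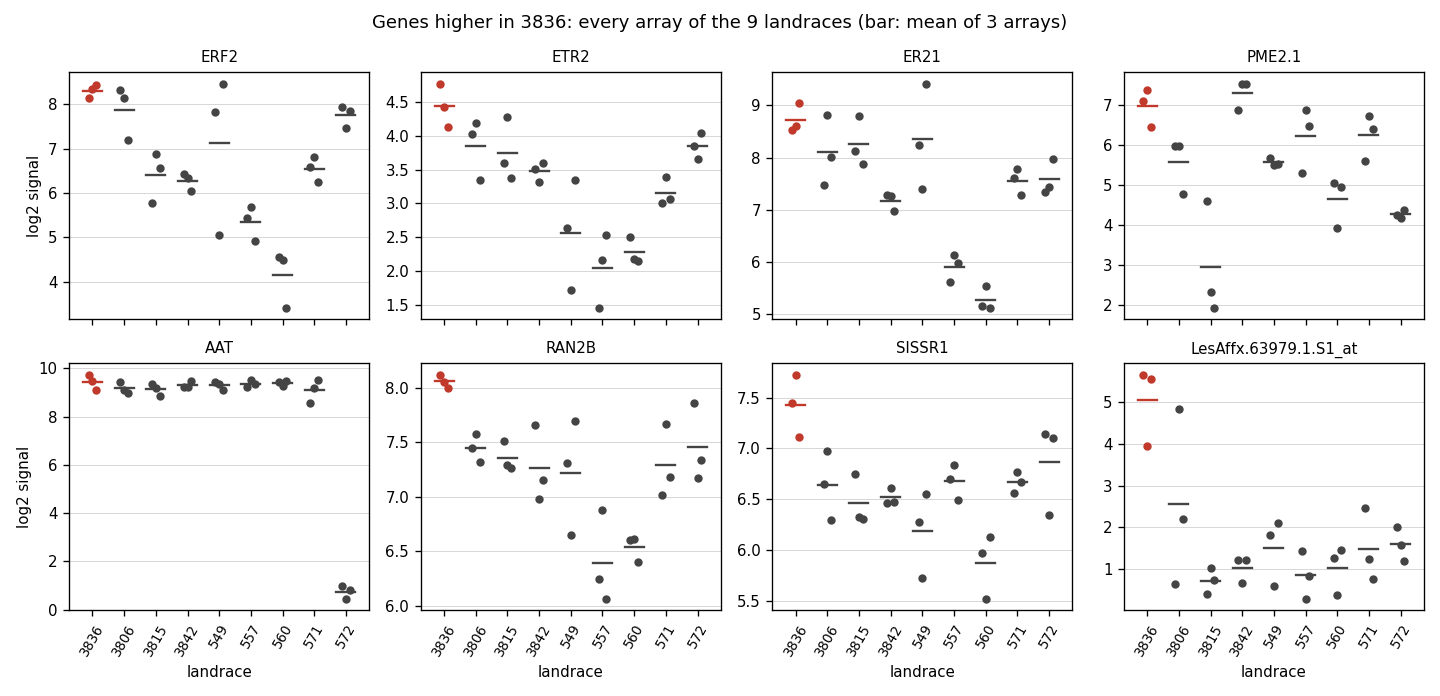
Log2 signal (y axis) of 7 genes and 1 unnamed probe set on every array of the 9 landraces (x axis), with points for arrays, bars for means of 3 arrays and 3836 in red. 3836 has the highest mean of ERF2, ETR2, ER21, RAN2B and SlSSR1, 3842 has that of PME2.1, and AAT is low in 572 alone.

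Cell wall genes had 1 increase and 4 decreases. Of 44 measured genes 5 passed, 11.4% beside 4.36% of all named genes, and 39 did not. The list median was -0.03, and 24 of the 44 were above background in 3836. Man4 (chromosome 1, 3127810 to 3130865), an endo-beta-mannanase, read 1.68, 1.31 and 0.96 in 3836. The other arrays had a lowest of -0.08, a median of 4.11 and a highest of 7.35, and the only landrace mean below that of 3836 was 0.53 ± 0.84 in 3815. Its difference was -2.85 ± 0.75 (adjusted p = 0.0376), 7.20-fold lower. The backgrounds of the 3836 arrays were 0.96, 0.71 and 0.93, so Man4 was close to background there and the size of the fold is uncertain. Cel2 (chromosome 9, 4098545 to 4103843), an endo-beta-1,4-glucanase or cellulase of ripe fruit, read 5.15, 5.08 and 3.54 against 3.05, 7.40 and 9.29 for the lowest, median and highest other array. The low values of 3836 were shared by 3806, whose mean was 4.66 ± 1.4 beside 4.59 ± 0.91, and the other 7 landraces had means from 6.29 upward. The difference from all 8 was -2.44 ± 0.62 (adjusted p = 0.0332).

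TBG3 (chromosome 3, 66470777 to 66476625), a beta-galactosidase, read 2.90, 2.14 and 2.75 in 3836 against 1.65, 4.95 and 6.93 for the lowest, median and highest other array. Only 3815 had a lower mean (2.47 ± 0.82), and the difference from all 8 was -2.05 ± 0.50 (adjusted p = 0.0255). LEXYL2 (chromosome 1, 89296355 to 89300418), a beta-xylosidase, was at background on all 3 arrays of 3836 (0.14, 0.13 and 0.58) and had means from 0.83 in 571 to 3.24 in 557 elsewhere. With the 3836 arrays raised to their background it was at least 2.2-fold lower (-1.72 ± 0.42 as measured, adjusted p = 0.0266). PME2.1 (chromosome 7, 68885752 to 68888084), a pectin methylesterase, was the wall gene that rose. It read 7.09, 7.37 and 6.45 in 3836 against 1.93, 5.52 and 7.53 for the lowest, median and highest other array. Landrace 3842 was as high (7.30 ± 0.38), and the difference from all 8 was 1.62 ± 0.39 (adjusted p = 0.0255). PG2, the abundant ripening polygalacturonase, read 9.77, 10.20 and 8.46 and did not pass (0.05 ± 0.48, adjusted p = 0.973). XYL1 (1.07 ± 0.31, adjusted p = 0.0556) and the expansin gene EXPA3 (0.96 ± 0.35, adjusted p = 0.127) did not pass either.

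The wall genes were sensitive to single arrays and landraces. Man4, Cel2, TBG3 and LEXYL2 each lost the threshold when any 1 array of 3836 was left out, PME2.1 without replicate 1 or 2. Each of the 5 also lost it when 560 was left out of the comparison mean, with adjusted p-values from 0.0535 to 0.0913, and kept its direction.

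**Figure D3:**
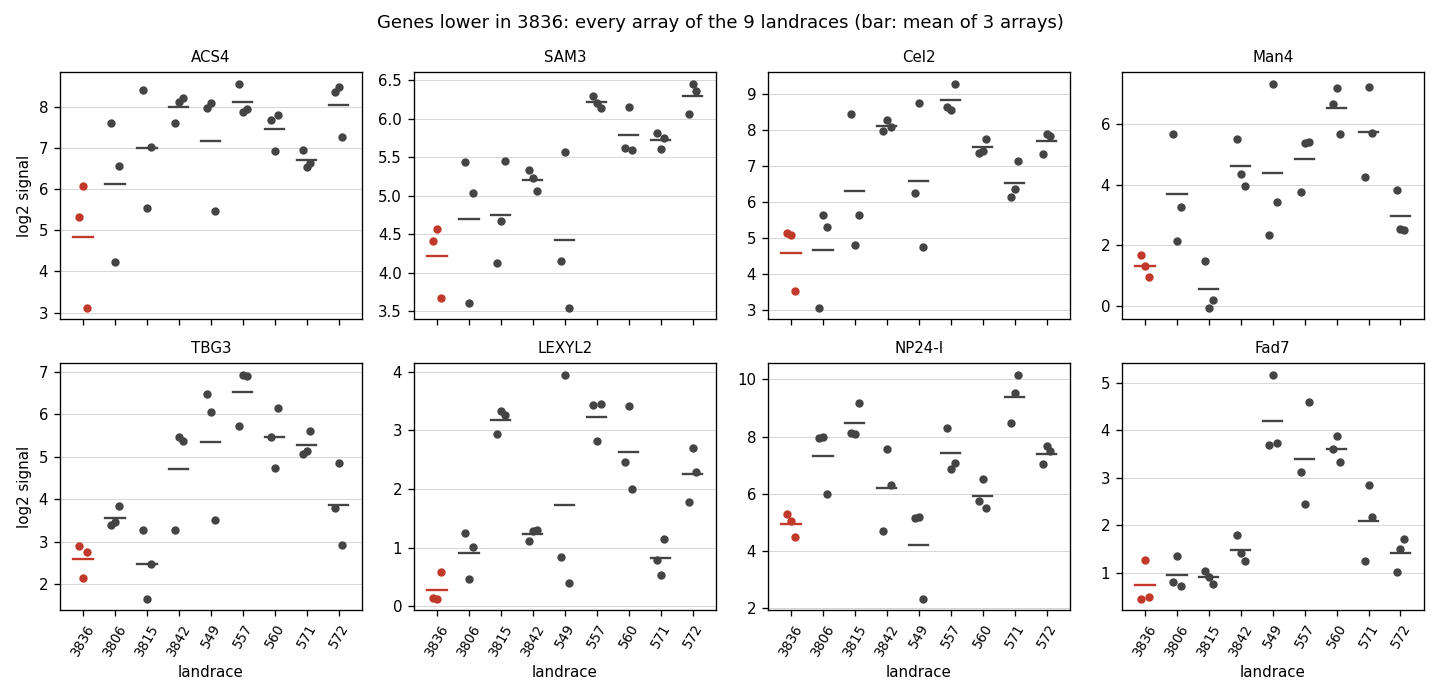
Log2 signal (y axis) of 8 genes on every array of the 9 landraces (x axis), with points for arrays, bars for means of 3 arrays and 3836 in red. 3836 has the lowest mean of ACS4, SAM3, Cel2, LEXYL2 and Fad7, while 3815 is lower for Man4 and TBG3 and 549 for NP24-I.

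Aroma genes had 1 call each way among 10 measured, 20% beside 4.36% of all named genes, and 1 of the pair, AAT, came from 572 alone. The list median was -0.26. AAT (chromosome 8, 1383748 to 1386747), an alcohol acyltransferase that makes volatile esters, read 9.74, 9.47 and 9.12 in 3836. Its other arrays had a median of 9.23 and a highest of 9.50, and the lowest, 0.45, was of 572. The difference from all 8 was 1.26 ± 0.16 (adjusted p = 0.000377), and it came from 572, whose mean was 0.74 ± 0.27. Without 572 in the comparison mean it was 0.19 (adjusted p = 0.581), and the other 7 landrace means were 9.09 to 9.39. Fad7 (chromosome 6, 37296828 to 37298724), a plastid omega-3 fatty acid desaturase that supplies linolenic acid, read 0.45, 1.28 and 0.50 in 3836 against 0.74, 1.76 and 5.18 for the lowest, median and highest other array. With 2 arrays of 3836 at background it was at least 2.3-fold lower (-1.51 ± 0.34 as measured, adjusted p = 0.0198). The means of 3806 (0.96 ± 0.34) and 3815 (0.91 ± 0.14) were about as low, and the high ones were in 549, 557 and 560. The lipoxygenase gene loxC stood at -1.42 ± 0.44 and did not pass (adjusted p = 0.0772), and ADH2, an alcohol dehydrogenase gene read at 11.22 ± 0.23, stood at 0.45 ± 0.16 (adjusted p = 0.112). ADH2 passed under median centring (0.54, adjusted p = 0.0476) and with array weights (0.49, adjusted p = 0.0454).

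RAN2A and RAN2B, neighbouring genes for small Ran GTPases of nuclear transport, were higher together. They lie side by side on chromosome 1, at 89121256 to 89124643 and 89132570 to 89135858, and how far their probe sets can read each other's transcript was not tested. RAN2B read 8.12, 8.06 and 8 in 3836 against 6.06, 7.22 and 7.86 for the lowest, median and highest other array. It was the one described gene past the threshold whose 3 arrays lay above all 24 others, with a difference of 0.94 ± 0.19 (adjusted p = 0.00979). RAN2A differed by 1.23 ± 0.23 (adjusted p = 0.00741), with values of 8.17, 7.83 and 8.16 against a highest other array of 7.89. RAN2B lost the threshold without replicate 1 or 2 of 3836, and RAN2A without replicate 1.

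Among genes of hormones and sterols, SlSSR1 (chromosome 2, 41472803 to 41475736), a sterol side chain reductase, read 7.44, 7.73 and 7.12 in 3836 against 5.52, 6.52 and 7.14 for the lowest, median and highest other array. All but replicate 3 of 3836 lay above every other array. The difference was 0.94 ± 0.18 (adjusted p = 0.00771), and the other 2 of 3 measured sterol genes did not pass (33.3% called beside 4.36%). SlSSR1 lost the threshold without replicate 1 or 2 of 3836. MYC2, a transcription factor of jasmonate signalling, was higher by 0.94 ± 0.26 (adjusted p = 0.0427), with a mean of 7.03 ± 0.45 against 6.09. Landrace 557 was near it at 6.80 ± 0.25, and replicate 3 of 3836 (6.52) lay inside the others' range. MYC2 kept the threshold in 14 of the 27 fits that left out 1 array. It lost the threshold without replicate 1 or 2 of 3836, and without 560 in the comparison mean. GA3ox1, a gibberellin 3-oxidase that makes the active hormone, was low everywhere and at background in 5 of the 8 other landraces. It was at least 1.44-fold higher (0.76 ± 0.20 as measured, adjusted p = 0.0378) and the 1 gene of 12 for abscisic acid, gibberellin and brassinosteroid that passed (8.33% beside 4.36% of all named genes). Its mean of 1.46 ± 0.39 in 3836 was near those of 3842 (1.24 ± 0.16) and 571 (1.19 ± 0.41). GA3ox1 lost the threshold without replicate 1 or 2 of 3836, and without 549 or 560 in the comparison mean.

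DHS, the deoxyhypusine synthase that activates translation factor eIF-5A, was higher by 0.92 ± 0.22 (adjusted p = 0.0228). DEM2 (2-fold, adjusted p = 0.043), ERABP1 (0.83 ± 0.22, adjusted p = 0.0386) and app1 (0.80 ± 0.21, adjusted p = 0.0385) were higher as well. For DEM2 the mean of 3806 (6.48 ± 0.4) was above that of 3836 (6.11 ± 0.3). DHS, DEM2, ERABP1 and app1 each lost the threshold when any 1 array of 3836 was left out. DEM2 kept it in 14 of the 27 fits that left out 1 array. Outside the rule for named genes, and named after their values were seen, ChrC, a chromoplast protein bound to carotenoids, was higher by 0.71 ± 0.17 (adjusted p = 0.023). The undescribed genes LOC544143 (0.69 ± 0.18, adjusted p = 0.0389) and LOC543654 (0.47 ± 0.13, adjusted p = 0.0396) passed too. Both had their highest mean in 3806, at 3.36 and 7.58 beside 2.69 and 7.41 in 3836. ChrC and LOC543654 lost the threshold when any 1 array of 3836 was left out.

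Of 22 defence and wound genes 1 passed, 4.55% beside 4.36% of all named genes. NP24-I (chromosome 8, 66041684 to 66042671), an osmotin-like protein of the thaumatin family, read 5.29, 5.04 and 4.49 in 3836 against 2.33, 7.28 and 10.16 for the lowest, median and highest other array. It was low in 549 too (4.22 ± 1.64) and highest in 571 (9.38 ± 0.86). The difference was -2.10 ± 0.54 (adjusted p = 0.0342), and without 571 in the comparison mean it was -1.76 (adjusted p = 0.0759). Decreases outside the lists were in TFT3, a 14-3-3 protein gene (-1.43 ± 0.35, adjusted p = 0.0255), DDTFR18 (-1.52 ± 0.37, adjusted p = 0.0262), gtsatom and RPL37. DDTFR18 rested on replicate 3 of 3836, which read 2.49 beside 4.75 and 4.61, and without it the difference was -0.79 (adjusted p = 0.279). The gene gtsatom was at least 1.77-fold lower on 1 probe set (adjusted p = 0.0389) and stood at -0.48 on the other (adjusted p = 0.505). RPL37, a ribosomal protein gene, was lower by a small amount: 7.03, 7.10 and 7.02 in 3836 against 7.06, 7.34 and 7.78 for the lowest, median and highest other array (-0.33 ± 0.09, adjusted p = 0.0417). RPL37 lost the threshold under median centring and when any 1 array of 3836 was left out. It kept the threshold in 14 of the 27 fits that left out 1 array. The other 5 lower named genes have no description in the sources used here and were named after their values were seen. Among them LOC543929 (chromosome 3, 64150171 to 64151537) was at background on all 3 arrays of 3836 (0.52, 0.26 and 0.27), against 0.19, 2.08 and 5.38 for the lowest, median and highest other array. It was at least 2.89-fold lower (adjusted p = 0.0055), and passed in all 27 fits that left out 1 array and all 8 that left out 1 landrace. LOC543655 (-1.06 ± 0.28), LOC544309 (-0.98 ± 0.26), LOC543565 (-0.62 ± 0.18) and LOC543938 (-0.62 ± 0.17) had adjusted p-values from 0.0396 to 0.0498.

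**Figure D4:**
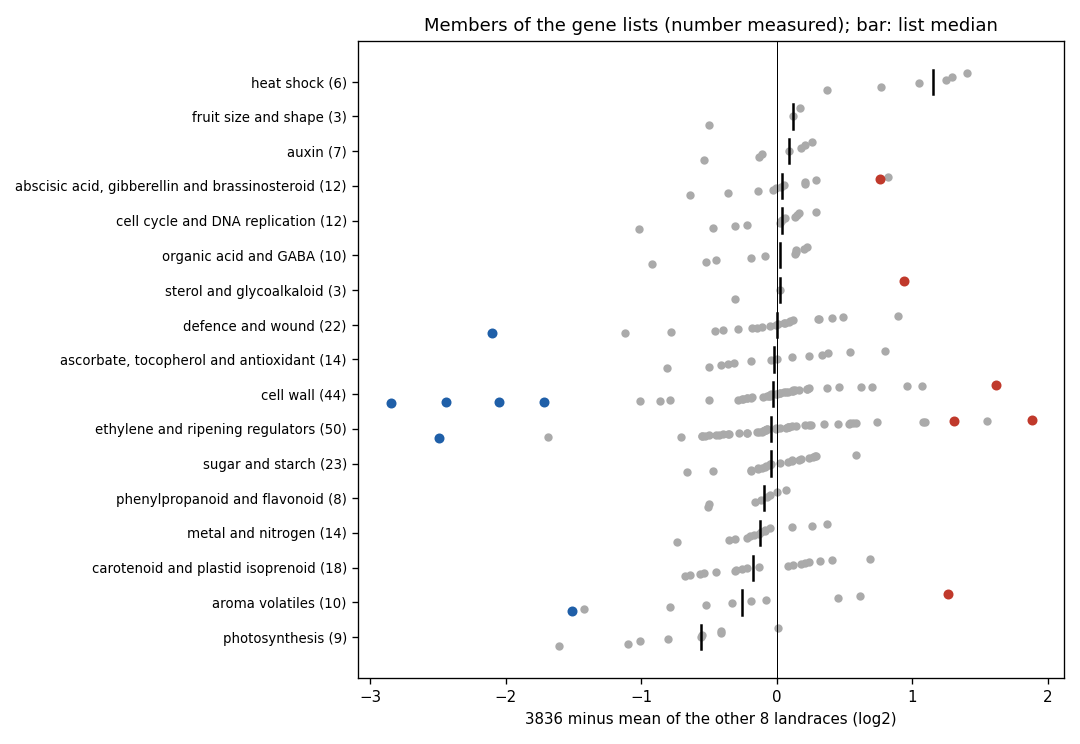
Differences of 3836 from the mean of the other 8 landraces (x axis, log2) for every measured gene of 17 gene lists (rows, with the number measured), in red or blue where past the threshold; the black bar is the list median. The 5 cell wall and 3 ethylene genes past the threshold lie on both sides of 0, and the 6 heat shock genes all lie above it with 0 past the threshold.

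In 11 of the 17 lists, with 3 to 23 genes each, 0 members passed, beside 4.36% called over all named genes. Heat shock genes had the highest list median, 1.15 over 6 genes beside -0.006 for all probe sets. The small heat shock protein genes HSP17.4 (1.4 ± 0.52, adjusted p = 0.14), vis1 (1.29 ± 0.47, adjusted p = 0.133), MTSHP (1.25 ± 0.56, adjusted p = 0.242) and HSP21 (1.05 ± 0.61, adjusted p = 0.385) did not pass. On single arrays they varied widely, HSP17.4 from 3.81 to 9.98 over the 24 other arrays beside 8.31, 8.59 and 9.26 in 3836. Photosynthesis genes had the lowest list median, -0.56 over 9 genes. Of these CAB4, a chlorophyll-binding protein gene, was nearest to the threshold (-1.01 ± 0.30, adjusted p = 0.0595), and the plastocyanin gene PETE stood at -1.61 ± 0.69 (adjusted p = 0.216).

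The 18 carotenoid and plastid isoprenoid genes had a median of -0.175. Psy1, the first committed enzyme of the carotenoid pathway, read 9.35, 9.34 and 8.04 in 3836, and its difference of 0.12 ± 0.26 (adjusted p = 0.873) changed sign without 560 (-0.37). The later desaturase genes PDS (0.24 ± 0.28) and ZDS (0.21 ± 0.21) did not pass. The 23 sugar and starch genes (median -0.04), 10 organic acid and GABA genes (0.02), 14 antioxidant genes (-0.02), 8 phenylpropanoid genes (-0.10), 7 auxin genes (0.09), 12 cell cycle genes (0.04), 3 fruit size genes (0.12) and 14 metal and nitrogen genes (-0.13) had list medians near that of all probe sets. A threshold that was not met does not show that these transcripts were equal.

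The largest difference of all belonged to a probe set without a gene name in the sources used here, LesAffx.63979.1.S1_at. It read 5.66, 3.94 and 5.55 in 3836 against 0.28, 1.21 and 4.84 for the lowest, median and highest other array. The high other array was of 3806, whose mean was 2.56 ± 2.12, and the other 7 landraces had means of 0.71 to 1.59. The difference was 3.71 ± 0.53 (adjusted p = 0.000809), and it passed in all 27 fits that left out 1 array and with the spiked control mean as a covariate (2.83, adjusted p = 0.0456). LesAffx.44609.1.S1_at, also unnamed, was nearly constant in 3836 (5.43, 5.46 and 5.58) and at least 5.52-fold higher than the mean of the others (adjusted p = 0.0222), although 572 was as high at 5.61. Its means were 4.10 in 549, 3.80 in 3815 and 3.77 in 3806, and lowest in 557 (0.46) and 560 (0.34). It lost the threshold when any 1 array of 3836 was left out, and without 560 in the comparison mean. The unnamed probe sets Les.3073.1.S1_at (at least 3.51-fold lower, adjusted p = 0.0416) and Les.1205.1.A1_at (at least 4.08-fold lower, adjusted p = 0.023) were at background on all 3 arrays of 3836. Other landraces were about as low. Les.3073.1.S1_at had means of 0.72 in 3806 and 0.89 in 572, and was highest in 549 (5.57) and 560 (5.32). Les.1205.1.A1_at had means of 0.66 in 560 and 0.95 in 3842, and was highest in 557 (6.85) and 571 (6.99). Without 557 or 571 in the comparison mean Les.1205.1.A1_at lost the threshold, as did Les.3073.1.S1_at without 549, 560 or 3842. Both lost it when any 1 array of 3836 was left out.

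Landrace 3806 was the nearest to 3836, with a root mean square log2 difference of 0.415 over all probe sets, against 0.757 for 560, the farthest landrace. Tested directly, 3836 and 3806 differed in 54 probe sets (0.538%; limma, adjusted p under 0.05), 38 higher in 3836 (0.379%) and 16 lower (0.159%). The values as deposited gave 30 higher and 31 lower, and median centring, which moved the median over all probe sets to 0.24, gave 194 higher and 20 lower. The count fell to 2 without replicate 3 of 3806, and to 12 and 11 without replicates 2 and 3 of 3836. With the spiked control mean as a covariate 49 passed, of which 11 were among the 54. Of 803 named genes 1 passed: AI, the vacuolar acid invertase that splits sucrose, was 8.74 ± 0.50 in 3836 and 11.21 ± 0.13 in 3806, a difference of -2.47 ± 0.57 (adjusted p = 0.0487). The arrays of the pair did not overlap for AI, and against all 8 landraces it stood at -0.47 ± 0.43 (adjusted p = 0.636). For Cel2 the direct difference from 3806 was -0.07 (adjusted p = 0.994), and for ERF2 it was 0.43 (adjusted p = 0.911).

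Against 3815, whose root mean square difference was 0.52, 376 probe sets passed (3.75%), 178 higher in 3836 (1.77%) and 198 lower (1.97%). Median centring, with a median of 0.159 over all probe sets, gave 269 higher and 133 lower, and the count ran from 95 without replicate 3 of 3815 to 608 without its replicate 1. Of the named genes 15 were higher and 17 lower. PME2.1 had the largest increase, from 2.96 ± 1.44 in 3815 to 6.97 ± 0.47 in 3836 (4.01 ± 0.52, adjusted p = 0.000166). Eix1, a receptor-like protein that recognises a fungal xylanase, was higher by 2.83 ± 0.71 (adjusted p = 0.0297), and CIF1, an inhibitor of cell wall invertase, by 1.75 ± 0.31 (adjusted p = 0.00241). EXPA3 (1.65 ± 0.46), GAI (1.63 ± 0.45), a DELLA repressor of gibberellin responses, MYC2 (1.23 ± 0.34) and SlSSR1 (0.97 ± 0.24) also rose. GA3ox1, at background on 2 arrays of 3815, was at least 1.93-fold higher (adjusted p = 0.0419).

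On the lower side against 3815, the chitinase gene CHI17 fell from 4.81 ± 1.92 to 1.15 ± 0.46 (-3.66 ± 1.01, adjusted p = 0.0447) and NP24-I from 8.46 ± 0.62 to 4.94 ± 0.41 (-3.52 ± 0.72, adjusted p = 0.00803). Of the genes at background on all 3 arrays of 3836, LEXYL2 was at least 4.96-fold lower (adjusted p = 0.00575), the beta-galactosidase gene TBG7 at least 3.35-fold (adjusted p = 0.00806) and the homeobox gene h52 at least 6.71-fold (adjusted p = 0.00116). PCNA, the sliding clamp of DNA replication, fell by 1.54 on the log2 scale (adjusted p = 0.0365). The translation factor gene eIF-5A1 fell from 10.03 ± 0.23 to 8.72 ± 0.19 (adjusted p = 0.0102) and the ribosomal protein gene RPL8 from 7.34 ± 0.26 to 6.57 ± 0.24 (adjusted p = 0.036). Man4 and TBG3 did not pass against 3815 (0.78, adjusted p = 0.816, and 0.12, adjusted p = 0.967). The comparisons with 3806, with 3815 and with all 8 landraces share the 3 arrays of 3836, and the last holds the others' arrays too, so they are not independent of one another.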

How the data were processed

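Per the labels, Trizol was used for total RNA, from which biotin-labelled cRNA was made for the arrays. The authors deposited log2 signals for 10209 probe sets on each of 30 arrays. How they were summarised, background corrected and normalised is not given in the sources used here. Their log base, likewise unstated, was taken as 2, and every fold given here rests on that. The spiked controls rose by a median of 0.848 per doubling of their standard amounts (0.461 to 1.046). A natural logarithm would give 0.693, which lies inside that range, so these controls do not settle the base. Deposited array medians ran from 1.26 to 1.76, and quantile normalisation between arrays was applied. The tests left out 171 control probe sets.

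limma 3.58.1 in R 4.3.3 fitted 1 mean per landrace to 27 arrays (18 residual degrees of freedom), with empirical Bayes variances, two-sided tests and a threshold of 0.05 on Benjamini-Hochberg adjusted p-values. In simulated data the fit was checked against known changes. Figures used matplotlib 3.10.9 in Python 3.11.15. A fold is given as a bound ("at least") where most arrays of 3836, or at least 2 other landraces on the lower side, were at background. The arrays at background were then raised to it.

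The platform annotation of 2007 named 909 probe sets, of which 885 matched the reference gene table (SLM_r2.1) and 24 did not. The remaining 9129 enter the counts only. The probe set with the highest mean stood for a gene. No reference sequence was used here, and none is printed. The members and the gene lists were chosen with earlier results of these data known. List matches by synonym that named another gene (DFR, gad2 and MET1) were removed. Genes named were the 12 highest and 12 lowest described genes past the threshold, up to 8 each way whose arrays did not overlap the others', up to 2 further passing members of each list, its highest not-passing member, and the 2 highest and 2 lowest unnamed probe sets. Other list members, and the remaining named genes past the threshold, were named after their values were seen.

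Replicate numbers did not pair the samples: over 108 same-numbered pairs of arrays the deviations from the landrace means correlated at a median of -0.006 (-0.281 to 0.363), and 20 pairs exceeded 0.1. Alternatives were other scalings, filters, variance models and error terms, array weights, a replicate block, a spiked control covariate, and single arrays or landraces left out.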

Additional observations from a re-analysis of the deposited data

How the results depend on the processing

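The 381 calls for 3836 against the other 8 landraces became 728 with array weights, 15 with the spiked controls as covariate, 126 without 560 in the comparison mean, 590 without 3806 in it and 0 with 1 mean per landrace (283 at an unadjusted p under 0.05, limma), and ran from 56 (without replicate 2 of 3836) to 574 (without replicate 3 of 549) as single arrays were left out. For 3836 against the other 8 landraces by 2-fold, the 138 calls became 14, 59, 211 and 0 under the covariate, without 560, without 3806 and with 1 mean per landrace, and ran from 36 to 180 without single arrays. For 3836 against 3806, 54 became 214 under median centring and 1002 with array weights, and ran from 2 to 82. The covariate gave 49 calls against 3806, of which 11 were among the 54. For 3836 against 3815, 376 became 935 with array weights and ran from 95 to 608. As a replicate block, the replicate number gave 305, 120, 42 and 314 calls in these 4 comparisons, and 27 of 39 called named genes and unnamed probe sets kept the threshold. Signs changed in 5 named genes that had not passed: Psy1 without 560 (-0.37) and over single arrays (-0.10 to 0.56), TPx1 with the covariate (0.03), FPPS1 over single arrays (-0.64 to 0.02), PG2 without 557 (-0.05), 572 (-0.06) or 3815 (-0.10) and over single arrays (-0.31 to 0.56), and H1 as deposited (-0.02), without 549 (-0.01), 560 (-0.06), 571 (-0.09) or 3806 (-0.03), with LA1589 in the mean (-0.10) and over single arrays (-0.36 to 0.47). Of the 35 called named genes and 4 called unnamed probe sets, 0 changed sign in any of these settings. The causes were not tested. Folds against a group at background are bounds, and 9129 probe sets have no name here.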
